A study of Homo sapiens with 4 samples.

Results

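The exonic m6A peaks of 37 amino acid transporter genes were examined in OE-19 cells. OE-19 is an established cell line of adenocarcinoma of the esophagogastric junction (AEG). The genes were all protein-coding genes of the hg38 annotation whose whole symbol is SLC1A, SLC3A, SLC7A, SLC36A or SLC38A followed by digits, and they were 37 of 20046 protein-coding genes. The series held 4 samples of OE-19 cells grown in RPMI1640 medium with serum and antibiotics, namely 2 replicates immunoprecipitated (IP) with an m6A antibody and 2 replicates of input RNA without antibody. No treatment or genetic change was given for either group, and all samples came from the same line. In meRIP-seq, an antibody captures fragments of RNA that hold N6-methyladenosine (m6A), and a stretch of transcript where their reads accumulate is called as a peak. Peaks were listed separately for the IP replicates, 24607 in replicate 1 and 19318 in replicate 2, and the input samples entered no comparison. The study calls the replicates biological, and the sources used here do not say whether they were separate cultures. Sequencing depth is unknown because read numbers are not part of the lists. Where a gene has no peak, little m6A and little RNA cannot be told apart.

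Amino acid transporters move amino acids across the plasma membrane and the lysosomal membrane. The SLC3A proteins are heavy chains that pair with several SLC7A light chains, and together they form exchangers such as LAT1 (SLC7A5 with SLC3A2) and the cystine/glutamate exchanger xCT (SLC7A11 with SLC3A2). The SLC1A and SLC38A families carry glutamate, glutamine and other small neutral amino acids, and some SLC36A proteins, such as SLC36A1, are driven by protons. Tumor cells often rely on SLC7A5, SLC1A5 and SLC7A11 for leucine, glutamine and cystine. In mRNA, m6A is typically found in long exons and near stop codons, often at the sequence GGAC, in which the A carries the methyl group.

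A summit is the position of highest signal in a peak, and a peak was given to a gene when its summit lay in an exon of that gene. An exonic peak was found in both replicates for 10 of the 37 transporter genes (27.0%, 95% Wilson interval 15.4% to 43.0%). This compared with 33.4% of all protein-coding genes. Among the 10, SLC7A6 counted only through peaks that also lie over exons of a gene on the opposite strand, as described below. Replicate 1 alone gave 13 of the 37 genes (35.1%, interval 21.8% to 51.2%), against 42.4% of all protein-coding genes, and replicate 2 gave 10, against 34.1%. In total 13 genes had a peak in either replicate, against a background of 43.1%, and the other 24 had none. The intervals here and below account for counting error alone.

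The transporter genes were longer than protein-coding genes in general. Their median exonic length was 6392 nt, against 4416 nt for all protein-coding genes. When protein-coding genes outside the families were placed in 20 bins of exonic length and their share with a peak was applied to the transporter genes bin by bin, 14.8 genes (39.9%) with a peak in both replicates would correspond to 37 genes of these lengths. The observed number was 10. For replicate 1 the numbers were 13 observed and 18.4 from genes of like length, and for replicate 2 they were 10 and 15.1. No test was made of these differences, and expression was not part of the comparison.

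Every family held a gene with a peak in replicate 1, but SLC36A held none with a peak in both replicates. With 2 to 13 genes each, the families are too small to be compared with each other or with the 33.4% of all protein-coding genes. In both replicates a peak was found in 3 of 7 SLC1A genes (SLC1A1, SLC1A4 and SLC1A5), 1 of 2 SLC3A genes (SLC3A2), 4 of 13 SLC7A genes (SLC7A1, SLC7A5, SLC7A6 and SLC7A7), 0 of 4 SLC36A genes and 2 of 11 SLC38A genes (SLC38A7 and SLC38A10). In replicate 1 alone, SLC7A11, SLC36A1 and SLC38A11 had a peak. All 10 genes of replicate 2 were also found in replicate 1. Among the genes with no exonic peak were SLC38A1 and SLC38A2, sodium-coupled glutamine carriers, SLC38A9, a lysosomal arginine sensor, SLC7A8, the LAT2 light chain, and SLC3A1, the heavy chain of the renal cystine transporter. The remaining genes without one were SLC1A2, SLC1A3, SLC1A6, SLC1A7, SLC7A2, SLC7A3, SLC7A4, SLC7A9, SLC7A10, SLC7A13, SLC7A14, SLC36A2, SLC36A3, SLC36A4, SLC38A3, SLC38A4, SLC38A5, SLC38A6 and SLC38A8.

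**Figure D1:**
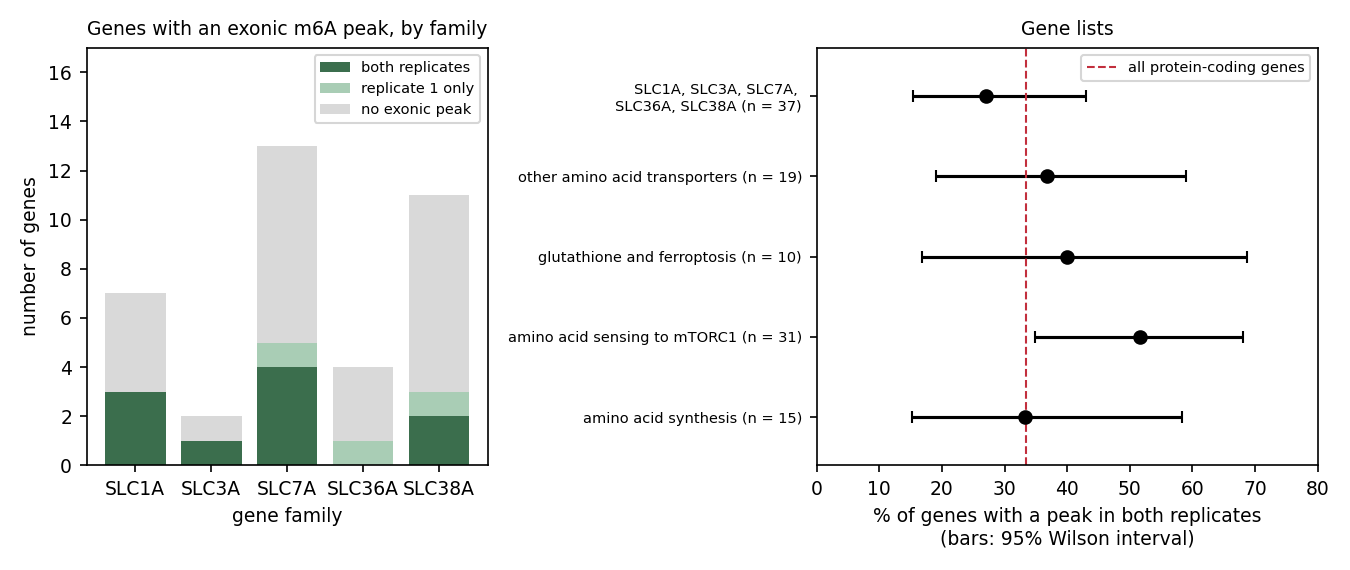
Left, number of genes of each family (vertical axis) with an exonic m6A peak in both replicates, in replicate 1 only, or in neither. Right, percent of genes with a peak in both replicates for the 37 transporter genes and for 4 related gene lists, with 95% Wilson intervals and the 33.4% of all protein-coding genes as a dashed line. The interval of the transporter genes (15.4% to 43.0%) spans that line.

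The peaks of the transporter genes were low in fold enrichment. The authors' fold enrichment, a ratio of the signal at the summit over the background of the peak caller, had a median of 2.91 over the 37 exonic peaks of the transporter genes in replicate 1 (lowest 1.54, highest 10.9). All 18488 peaks in exons of protein-coding genes in that list had a median of 5.21. In replicate 2 the 18 peaks of the transporter genes had a median of 2.80 (lowest 1.37, highest 6.96), against 4.72 for all 12003. Of the transporter peaks, 28 of 37 in replicate 1 and 16 of 18 in replicate 2 lay below the median of their list. The strongest peak of each gene gave the same order, with a median of 4.28 over 13 genes against 6.90 over 8494 genes in replicate 1, and 3.33 over 10 genes against 5.70 over 6838 genes in replicate 2. The number of genes with a peak in both replicates was 2 of 37 (5.41%) when a fold enrichment of 5 or more was required, against 19.3% of all protein-coding genes. Those genes were SLC1A4 and SLC38A10. A cut on q behaved differently. At q of 1e-05 or less, 10 genes (27.0%) kept a peak in both replicates, against 30.4% of all protein-coding genes. Fold enrichment depends on the local background, so it is not a measure of the methylated share of a transcript.

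**Figure D2:**
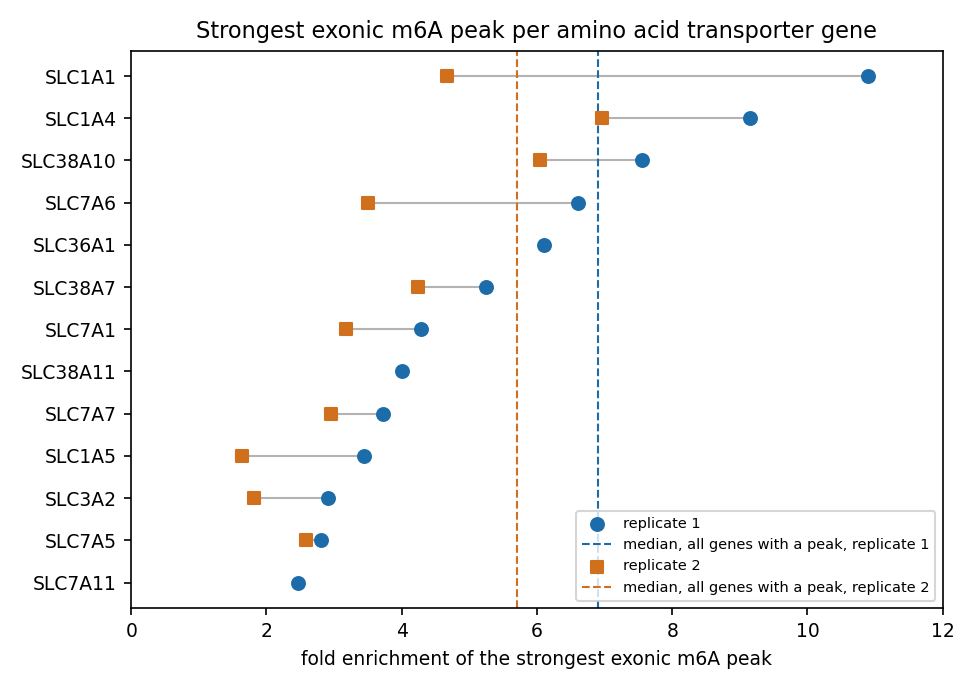
Fold enrichment (horizontal axis) of the strongest exonic m6A peak of the 13 transporter genes with a peak, in replicate 1 (circles) and replicate 2 (squares). Dashed lines mark the median of the strongest peak over all protein-coding genes with a peak, 6.90 in replicate 1 and 5.70 in replicate 2, and 10 of 13 and 8 of 10 transporter genes lie to the left of them.

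Peak position was then examined on 1 transcript per gene, that of longest coding sequence (CDS). Positions up to 200 nt before or after the stop codon were kept apart as the stop codon window. In replicate 1, 36 of the 37 summits lay on that transcript. Of these, 7 (19.4%, interval 9.75% to 35.0%) fell in the stop codon window, 11 (30.6%, 18.0% to 46.9%) in the rest of the 3′ UTR, 14 (38.9%, 24.8% to 55.1%) in the rest of the CDS and 4 (11.1%, 4.41% to 25.3%) in the 5′ UTR. Over all protein-coding genes the shares were 24.5%, 17.4%, 49.2% and 8.91% in the same order. In replicate 2, 17 of 18 summits lay on the transcript, with 4 (23.5%, 9.56% to 47.3%) in the stop codon window, 8 (47.1%, 26.2% to 69.0%) in the 3′ UTR, 3 (17.6%, 6.19% to 41.0%) in the CDS and 2 (11.8%, 3.29% to 34.3%) in the 5′ UTR. All protein-coding genes gave 27.1%, 19.1%, 48% and 5.71%. The 3′ UTR share of the transporter genes was thus above, and the CDS share below, those of all genes in both lists, and in replicate 2 the intervals of these shares did not reach the shares of all genes. These intervals treat summits as independent, but summits of 1 gene share its transcript, so the intervals cannot show that the shares differ. In replicate 2, 3 of the 3′ UTR summits were in SLC7A1, 2 in SLC7A5 and 2 in SLC7A6. Those of SLC7A5 overlap 1 wide replicate 1 peak, and those of SLC7A6 lie over exons of another gene, as described below. The 3′ UTR outside the stop codon window made up 54.1% of the transcript length of the 13 genes with a peak. This was above its share of their summits in either list, and the same length share for all genes is not given here.

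The last exon held 19 of the 36 summits in replicate 1 (52.8%) and 13 of the 17 in replicate 2 (76.5%), against 48.4% and 56.6% over all protein-coding genes. The median length of the last exons at these summits was 4397 nt in replicate 1 and 3003 nt in replicate 2, against 2398 and 2496 nt over all protein-coding genes. These medians are taken over summits, so a last exon with several summits counts several times.

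**Figure D3:**
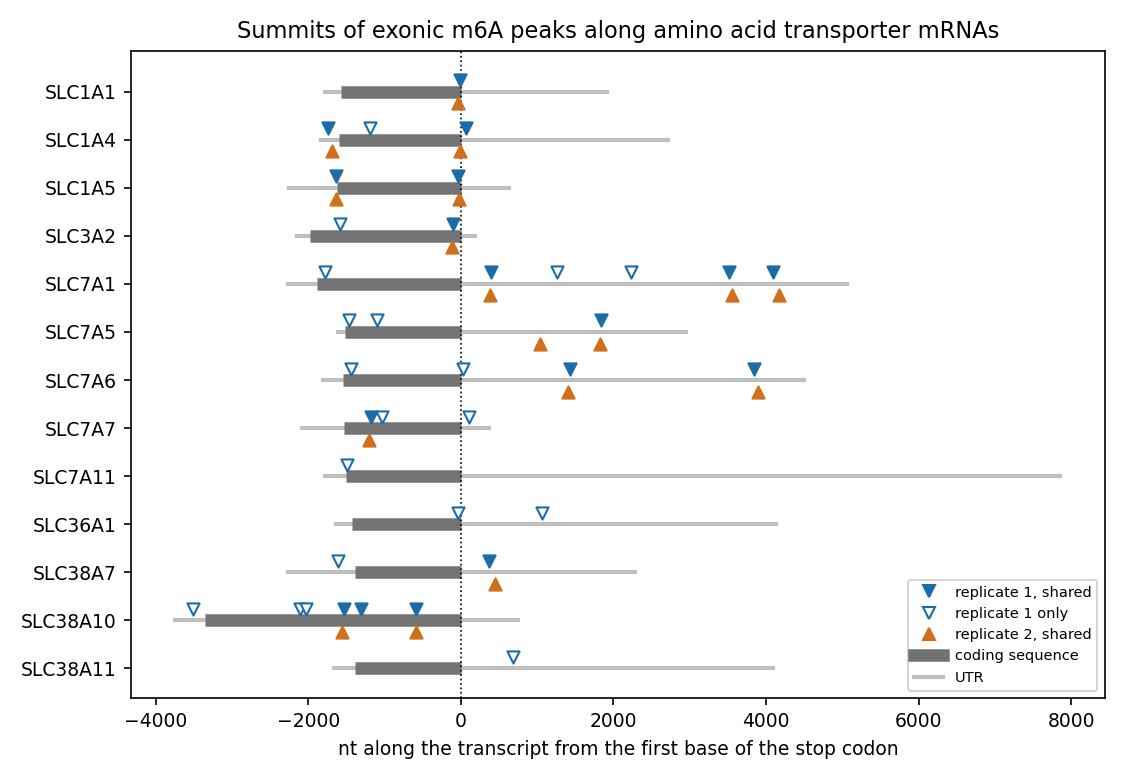
Summits of exonic m6A peaks along the 13 transporter mRNAs with a peak, with position 0 at the start of the stop codon (horizontal axis in nt, 1 row per gene). Thick lines are the coding sequence and thin lines the UTRs. Filled triangles are peaks shared by the replicates and open triangles are peaks of replicate 1 only. Every replicate 2 summit drawn is shared. SLC1A1, SLC1A4, SLC1A5 and SLC3A2 have a shared summit near position 0, and SLC7A1, SLC7A5 and SLC7A6 have theirs in the 3′ UTR.

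Peaks that overlapped by at least 1 bp between the lists were called shared. All 18 replicate 2 peaks of the transporter genes were shared (100%, interval 82.4% to 100%), against 95.9% over all protein-coding genes. In replicate 1, 17 of 37 were shared (45.9%, interval 31.0% to 61.6%), against 60.6%. By region, 4 of 14 replicate 1 peaks were shared in the CDS (28.6%), 7 of 11 in the 3′ UTR (63.6%), 4 of 7 in the stop codon window (57.1%) and 2 of 4 in the 5′ UTR (50%). Over all protein-coding genes, 60.5%, 63.7%, 71.3% and 40.8% were shared in the same order. The median fold enrichment in replicate 1 was 3.82 for the shared and 2.65 for the unshared peaks of the transporter genes, compared with 6.47 and 3.96 over all protein-coding genes.

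Reciprocal best overlaps between the lists gave 17 pairs in 10 transporter genes. Fold enrichment was higher in replicate 1 in 16 of the 17 pairs (94.1%), and the log2 ratio had a median of 0.44 (lowest −0.15, highest 1.32). The 10853 pairs of all protein-coding genes gave 80.6% and a median of 0.44 as well. The pair that was higher in replicate 2 was that of SLC38A7. The median of the geometric mean of both replicates was 3.68 for the transporter pairs and 5.63 for all pairs.

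**Figure D4:**
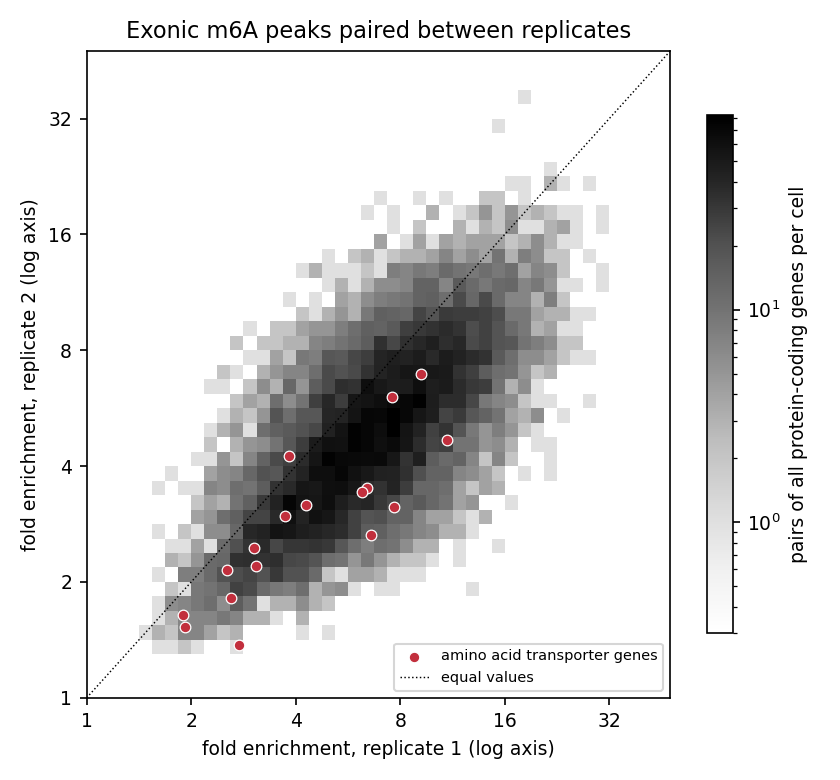
Fold enrichment of exonic m6A peaks paired between replicate 1 (horizontal log axis) and replicate 2 (vertical log axis). Grey cells count the 10853 pairs of all protein-coding genes, red points are the 17 pairs of transporter genes, and the dotted line marks equal values. In all, 16 of the 17 points lie below the line, and their median geometric mean is 3.68.

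The sequences at the summits were then read from hg38 on the strand of each gene, to show which summits lay beside a GGAC. In each, GGAC is in capitals. The first set gives 29 nt centred on the A of the GGAC nearest to the replicate 1 summit, for 1 shared peak in each of 6 genes. They are a selection, made after the sequences were seen, from the shared peaks near the stop codon or in the 3′ UTR, and all have this GGAC downstream of the coding sequence, unlike the SLC3A2 peak described below. The positions were chr9:4585580-4585608 (plus strand) for SLC1A1, chr2:65021202-65021230 (plus) for SLC1A4, chr13:29514095-29514123 (minus) for SLC7A1, chr16:87831142-87831170 (minus) for SLC7A5, chr16:68298775-68298803 (plus) for SLC7A6 and chr16:58667011-58667039 (minus) for SLC38A7.
SLC1A1: ggaaacaaggaaGGACatttccgtgagag
SLC1A4: gccgccagtcatGGACacagggcactgcc
SLC7A1: ccttcctcccggGGACtgttctgggattg
SLC7A5: cagcaggcaggtGGACtgactgtgttggg
SLC7A6: actgtatgagcaGGACggctgcattggat
SLC38A7: gagaatgactatGGACagaaggccaccat

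The A of these motifs lay 2 bp from the replicate 1 summit in SLC1A4, 3 bp in SLC38A7, 15 bp in SLC7A5, 16 bp in SLC7A1, 33 bp in SLC7A6 and 55 bp in SLC1A1. Counted from the start of the stop codon they were at 72, 362, 1816, 373, 1463 and 38 nt in the same order.

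The second set gives the coding bases within 50 nt of the replicate 1 summit for some of the summits in the CDS. The SLC7A11 window is shorter because it begins at the start codon. They lie at chr14:22812994-22813094 (minus strand) for SLC7A7, chr17:81246099-81246199 (minus) for the last exon of SLC38A10, chr17:81252264-81252364 (minus) for exon 13 of SLC38A10, chr11:62888542-62888642 (plus) for SLC3A2 and chr4:138242008-138242069 (minus) for SLC7A11.
SLC7A7: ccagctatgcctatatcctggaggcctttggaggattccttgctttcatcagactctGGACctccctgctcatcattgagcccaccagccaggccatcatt
SLC38A10 last exon: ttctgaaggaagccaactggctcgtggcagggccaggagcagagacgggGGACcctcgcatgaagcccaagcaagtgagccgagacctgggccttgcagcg
SLC38A10 exon 13: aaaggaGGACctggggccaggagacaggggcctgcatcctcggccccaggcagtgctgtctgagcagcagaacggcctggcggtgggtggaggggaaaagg
SLC3A2: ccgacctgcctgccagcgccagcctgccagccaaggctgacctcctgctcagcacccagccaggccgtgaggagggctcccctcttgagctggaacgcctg
SLC7A11: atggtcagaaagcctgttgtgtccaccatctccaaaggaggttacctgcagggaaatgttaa

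SLC7A7 and both SLC38A10 windows held a GGAC, and those of SLC3A2 and SLC7A11 held none. Among the shared CDS summits not printed, the window in exon 14 of SLC38A10 held a GGAC. Those of SLC1A1 and SLC1A5 held none. The nearest GGAC of SLC3A2 was 61 bp from the summit, at −160 nt from the stop codon. Over all members, GGAC lay within 50 nt of 17 of 37 summits in replicate 1 (45.9%, interval 31.0% to 61.6%) and 9 of 18 in replicate 2 (50%, 29% to 71.0%). The same windows at all summits in exons of protein-coding genes held it at 49.8% and 51.8%. GGACT was present at 4 of 37 (10.8%) and 4 of 18 (22.2%), against 17.7% and 18.9%. GGACT contains GGAC, and only the strand of the gene was searched.

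The genes with a peak in both replicates also had more GGAC in their transcripts, with a median of 21.5 motifs (lowest 7, highest 34) and 5.10 per kb. The 24 genes without a peak had a median of 11 (lowest 1, highest 25) and 3.255 per kb, and their transcripts were shorter, with a median of 2629 nt against 4520 nt. The ranges overlapped. SLC7A10 and SLC36A3 had 6.17 and 5.81 GGAC per kb and no peak, and SLC7A7 had 2.85 per kb and a peak in both replicates. SLC38A2 had 1.04 per kb and SLC7A11 had 1.24 per kb.

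SLC7A11, the light chain of xCT, which imports cystine for glutathione synthesis, had a single exonic peak, in replicate 1 only. SLC7A11 (ENSG00000151012.13) occupies chr4:138164097-138242349 (minus strand), with 12 exons and a transcript of 9645 nt of which 7859 nt are 3′ UTR. The peak ran from 138241976 to 138242262, in exon 1, with its summit 11 nt after the first coding base. Its fold enrichment was 2.46 (−log10 q of 5.5), at percentile 7.06 of the exonic peaks of the list. No GGAC lay within the peak. Neither list had a peak near the stop codon or in the long 3′ UTR of SLC7A11, although this UTR is longer than that of any of the 10 genes with peaks in both lists. The SLC7A11 peak of replicate 1 had no counterpart in replicate 2.

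SLC7A5, the light chain of LAT1, which imports leucine and other large neutral amino acids, had a broad 3′ UTR signal in both replicates. SLC7A5 (ENSG00000103257.9) occupies chr16:87830023-87869507 (minus strand). In replicate 1, a peak of 2771 bp from 87830183 to 87832953 covered nearly the whole last exon, with its summit 1831 nt downstream of the stop codon's start, a fold enrichment of 2.75 and a −log10 q of 29.8. In replicate 2 the same stretch held separate peaks. The peak from 87830453 to 87831552 had its summit at 1819 nt, with a fold enrichment of 2.59 and a −log10 q of 32.5. The peak from 87831803 to 87832926 had its summit at 1036 nt, with a fold enrichment of 1.37 and a −log10 q of 1.6. The summits of the stronger signal thus nearly coincided between the replicates, beside the GGAC shown above, and the wide peak held 21 GGAC motifs. The largest-overlap rule paired the wide peak with the weaker of the replicate 2 peaks, which gave a log2 ratio of 1.00. Pairing by summits within 100 bp gave 0.09.

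Replicate 1 had a further pair of SLC7A5 peaks in exon 1 that replicate 2 lacked, with fold enrichments of 2.80 and 1.54. The transcribed pseudogenes SLC7A5P1 and SLC7A5P2, also on chromosome 16, match nt 86 to 623 and nt 86 to 621 of the SLC7A5 transcript, all in exon 1, at 96.7% and 96.3% identity. SLC7A5P2 had a peak of its own in replicate 1, with a fold enrichment of 2.60, and none in replicate 2. The gene of the exon 1 peaks is therefore uncertain, whereas the 3′ UTR peaks lie outside the copied stretch.

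**Figure D5:**
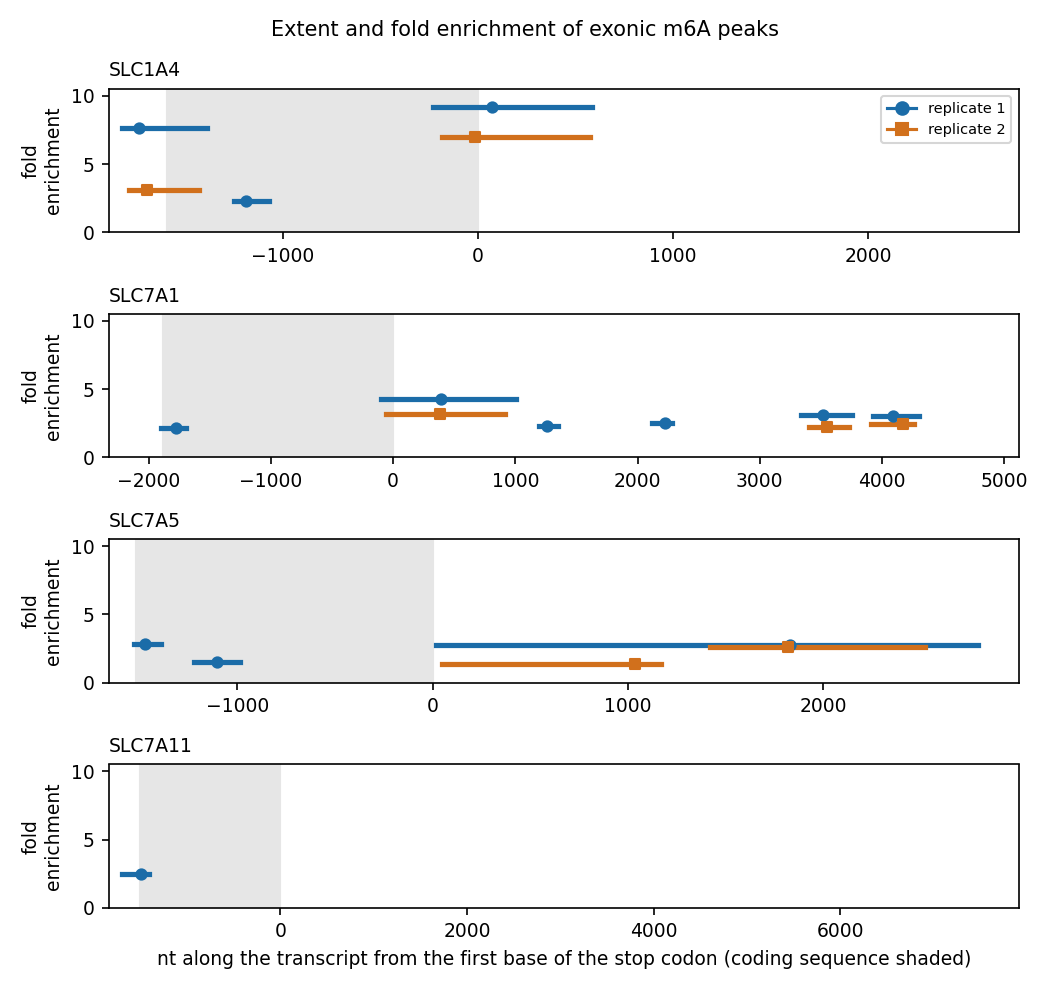
Extent (horizontal bars) and summit (points) of each exonic m6A peak of SLC1A4, SLC7A1, SLC7A5 and SLC7A11 in replicate 1 and replicate 2, with the stop codon's start at 0 nt (horizontal axis), at the height of its fold enrichment (vertical axis). The coding sequence is shaded. SLC1A4 reaches 9.15 and 6.96 at the stop codon, SLC7A1 has 3 shared peaks in its 3′ UTR, SLC7A5 has a broad 3′ UTR signal at 2.75 and 2.59, and SLC7A11 has only the replicate 1 peak of 2.46 at its first coding bases.

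SLC3A2, the heavy chain of LAT1 and xCT, also known as 4F2hc or CD98, had a shared peak across the stop codon, with summits upstream of it. The replicate 1 peak spanned 62888449 to 62888792 on chromosome 11 (plus strand), had a fold enrichment of 2.61 and its summit at −99 nt. The replicate 2 peak spanned 62888490 to 62888790, had a fold enrichment of 1.82 and peaked at −119 nt. The geometric mean was 2.18, at percentile 1.64 of all exonic pairs. A second peak of replicate 1, in exon 5, had a fold enrichment of 2.91 and no counterpart.

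SLC1A5, the glutamine transporter ASCT2, had the shared pairs with the lowest geometric means, 1.71 and 1.76, of the 10 genes. Its stop codon peak (chromosome 19, minus strand, 46775320 to 46775644 in replicate 1) reached 1.92 and 1.53, with summits at −38 and −25 nt. Its 5′ peak, at 46787412 to 46788522 in replicate 1, had 1.89 and 1.64, with summits 14 and 12 nt before the first coding base. The pairs were at percentiles 0.184 and 0.295. The 5′ peak lies over an exon of a long non-coding RNA on the opposite strand, and the lists carry no strand, so its gene is uncertain. A further SLC1A5 peak of 3.44 was found in replicate 1 alone, in an exon outside the transcript used here. SLC1A5 had 6.59 GGAC per kb, the highest of the 37 genes.

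The other SLC1A genes with peaks were stronger. SLC1A4, the serine and alanine transporter ASCT1, had its main peak over the stop codon (chromosome 2, plus strand, 65020910 to 65021728 in replicate 1), where fold enrichment was 9.15 and 6.96, with a −log10 q of 48 and 42. The summits lay at 70 and −16 nt. This pair had the highest geometric mean of the transporter genes, 7.98, at percentile 77.4 of all exonic pairs. A 5′ UTR peak of SLC1A4 had 7.65 and 3.13, and a CDS peak of 2.33 was found in replicate 1 alone. SLC1A1, the glutamate and cysteine transporter EAAT3, had 1 peak in each list, at the stop codon (chromosome 9, plus strand, 4585418 to 4585679 in replicate 1). Its fold enrichment was 10.9 in replicate 1 and 4.67 in replicate 2, a log2 ratio of 1.22, and its summits lay at −17 and −40 nt. The replicate 1 value was the highest among the transporter genes, at percentile 90.3 of its list, while the replicate 2 value was at percentile 48.9.

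Among the cationic amino acid transporters, SLC7A1 (CAT1), which imports arginine and lysine, had 6 peaks in exons in replicate 1, of which 3 were shared with replicate 2. The 3 shared peaks all lay in its last exon of 5170 nt. The strongest ran from 29513476 to 29514594 on chromosome 13 (minus strand) in replicate 1, with summits 389 and 380 nt downstream of the stop codon's start and a fold enrichment of 4.28 and 3.17. The shared peaks farther downstream had 3.08 and 2.20 (summits at 3513 and 3552 nt) and 3.04 and 2.45 (summits at 4092 and 4174 nt). The peak nearest the stop codon was therefore the strongest SLC7A1 peak in both replicates.

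SLC7A6 and SLC7A7 encode the y+LAT light chains, which exchange cationic for neutral amino acids together with SLC3A2. The shared SLC7A6 peaks lay deep in the 3′ UTR. That at chr16:68298558-68298913 (replicate 1 extent) reached 6.42 and 3.50, and that at chr16:68301063-68301293 had 6.6 and 2.65. Both lie over exons of SLC7A6OS, a protein-coding gene on the opposite strand, so they cannot be given to SLC7A6 with certainty. Without them SLC7A6 would have only unshared replicate 1 peaks, at 2.75 in the CDS and 3.55 at the stop codon. SLC7A7 had a shared peak in the CDS of exon 2, from 22812916 to 22813327 on chromosome 14 (minus strand) in replicate 1, with 3.72 and 2.96. Its summits lay 354 and 322 nt after the first coding base. Its peaks of 2.88 in exon 3 and 2.25 near the stop codon were in replicate 1 alone.

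SLC38A10 had peaks in 6 places of its exons in replicate 1, and 3 of them were shared. Its main peak was 2369 bp wide, wider than the last exon of 1863 nt in which its summit lay (chromosome 17, minus strand, 81245012 to 81247380 in replicate 1). Its summits were at −591 and −583 nt, within the CDS, which extends far into that exon. Fold enrichment was 7.56 and 6.04, with a −log10 q of 74.8 and 71.3, the highest of the transporter genes in each list. The shared interval of 2276 bp held 15 GGAC motifs. Exon 13 had a peak of 6.21 and 3.43. A peak of 2.53 and 2.15 overlapped exon 14 and an exon of a long non-coding RNA on the opposite strand. Its replicate 1 summit lay in exon 14, and its replicate 2 summit lay in an exon outside the transcript used here. SLC38A7, a lysosomal glutamine exporter, had a shared 3′ UTR peak (chromosome 16, minus strand, 58666871 to 58667377 in replicate 1) with 3.82 and 4.24. It also had a 5′ UTR peak of 5.24 in replicate 1 alone.

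The remaining peaks were in replicate 1 alone. SLC36A1, the proton-coupled transporter PAT1 of the plasma and lysosomal membranes, had a peak at the stop codon with a fold enrichment of 6.10 (summit at −45 nt) and a 3′ UTR peak of 4.73. SLC38A11 had a 3′ UTR peak of 4.01 with a −log10 q of 1.3, at the edge of the list, and it was lost at q of 0.01 or less. SLC36A1 had the highest fold enrichment of the genes seen in 1 replicate, above that of SLC7A1, SLC7A5, SLC7A7, SLC1A5 and SLC3A2, which were seen in both.

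For context, related gene lists were counted in the same way, beside the 33.4% of all protein-coding genes. Of 19 other amino acid transporters, 7 (36.8%, interval 19.1% to 59.0%) had a peak in both replicates. They included SLC43A1 (LAT3), with a best fold enrichment of 15.4 and 7.23, and SLC66A1, a lysosomal exporter of cationic amino acids, with 22.8 and 5.41. The lowest values of the 7 were those of SLC6A9, 4.83 and 3.26, and the highest those of SLC6A19, 27 and 7.62. Of 10 genes of glutathione metabolism and ferroptosis, 4 (40%, 16.8% to 68.7%) had one. These were GCLC, the catalytic subunit of glutamate-cysteine ligase (15.6 and 4.39), CHAC1 (4.81 and 4.75), NFE2L2 (3.64 and 2.49) and KEAP1 (5.16 and 3.11), and GPX4 had none in either list. Amino acid sensing upstream of mTORC1 gave 16 of 31 genes (51.6%, 34.8% to 68.0%), among them RRAGC (12.8 and 8.33) and MIOS (7.55 and 9.24). The lowest values of these 16 were those of CASTOR2 (3.25 and 2.53). Amino acid synthesis gave 5 of 15 (33.3%, 15.2% to 58.3%), among them PSAT1, GOT1, GOT2 and CBS, while asparagine synthetase (ASNS) had a peak of 5.95 in replicate 1 alone. The interval of the amino acid sensing list began just above the 33.4% of all protein-coding genes, and those of the other 3 lists spanned it. The lists were chosen with earlier results of these data known, so these intervals cannot show that a list differs from all genes. These lists were not compared with genes of like length. The intervals of these lists and of the 37 transporter genes overlap, and differences between them were not tested.

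The identity of the cells could not be checked from the lists, since they hold no expression values. Of 7 epithelial genes, CDH1 had an exonic peak in both replicates, and EPCAM, KRT7, KRT8, KRT18, KRT19 and ERBB2 had none. Of 6 genes of other cell types, COL1A1 had a peak in replicate 1 alone (3.11), and PTPRC, CD3E, DCN, PECAM1 and ALB had none.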

How the data were processed

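m6A meRIP-seq peak lists of 2 IP replicates were used. The study's methods describe DNase-treated, fragmented total RNA, and the labels UV-fixed lysed cells. The methods name TopHat2 for mapping to hg38, while the submitters' processing notes list fastp and HISAT2. Peaks were called with MACS2, 1 list per sample. Tool versions and the use of input as control are not given in the sources used here. For each peak the authors deposited the fold enrichment (a ratio over the caller's background), −log10 of p and of q, a score (10 times −log10 q, not used) and the summit offset. The lists end at a q of 0.05.

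All sequence names matched hg38 (44 of 44 and 53 of 53) and 0 peaks ran past an end. Genes came from GENCODE version 44. A summit in exons of several protein-coding genes counted for each. Coordinates are 1-based. No test was made: the design holds 1 group with values, and 2 libraries. The members and lists were chosen with earlier results of these data known. Named genes were every member, with peaks in detail for SLC7A11, SLC7A5, SLC3A2, SLC1A5, SLC38A2 (which had none) and the 8 members whose shared peaks were strongest by geometric mean over both lists. Alternatives were stricter q, fold enrichment of 5 or more, equal list sizes, any exon overlap, other length bins, overlap rules, windows, transcripts and midpoints, and each replicate left out. Scripts were tested on planted data. Python 3.11.15, numpy 2.4.6, pandas 2.3.3, scipy 1.17.1, pysam 0.24.0 and matplotlib 3.10.9 were used. Some items are not reported here.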

Additional observations from a re-analysis of the deposited data

Results flagged for a closer look

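Signal outside the exonic summits, on which the comparisons rest, was present in introns of the transporter genes, with 3 intronic peaks in replicate 1 and 4 in replicate 2. No control lists were analysed here to set these against. In the whole lists, 18488 of 24607 peaks in replicate 1 and 12003 of 19318 in replicate 2 had their summit in a protein-coding exon. The intronic share over all genes is not given here, so the counts cannot be called high or low. An intronic peak of SLC38A10 (4.08 and 3.25) and one of SLC38A6 (3.45 and 4.23) were shared (fold enrichment in replicate 1, then replicate 2). SLC38A10 had a further unshared one in replicate 1 (3.78), and SLC36A4 (4.69) and SLC7A13 (4.68) had theirs in replicate 2 alone. SLC38A6, SLC36A4 and SLC7A13 had no exonic peak. Whether these peaks come from unspliced RNA was not tested.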

How the results depend on the processing

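Of 60 values under the alternatives, 45 stayed within 1.5 times the main count or within its interval or replicate spread, 15 moved and 0 reversed. With a fold enrichment of 5 or more, the number of genes was 2 in both replicates, 6 in replicate 1 and 2 in replicate 2. The shared portion of the 9 replicate 1 peaks was 22.2%, but the cut was applied to both lists and left only 2 replicate 2 peaks. Against the full replicate 2 list, only the SLC36A1 peak of 6.10 and the SLC38A7 peak of 5.24 among these 9 were unshared. The stop codon share of replicate 2 was 50% of only 2 summits. The median fold enrichment of replicate 1 was 3.82 for shared peaks, 4.28 for the best peak per gene and 3.08 at q of 1e-05 or less. In replicate 2 it was 3.33 for the best peak per gene, 2.96 at q of 0.01 or less and 3.15 at q of 1e-05 or less. GGAC was present at 27.0% (25 nt) and 73.0% (100 nt) of replicate 1 summits, and at 83.3% (100 nt) of replicate 2 summits and 72.2% of its peak midpoints. By construction, a wider window holds more motifs, and a cut on both lists leaves fewer peaks to overlap. The cause of the other shifts was not tested. Leaving out a replicate gave 10 to 13 genes. No paired analysis was possible because the input samples had no peak list here and no result comes from a test. Few peaks per gene and unknown depth limit the precision.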
